A study of Homo sapiens with 6 samples.

Results

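The neutrophil chemokines encoded around CXCL8 on chromosome 4 comprise CXCL1, CXCL2, CXCL3, CXCL5, CXCL6 and CXCL8. They were taken as the rows of the deposited gene table that carry these names, and each name occurred in 1 row, giving 6 of 58219 rows. The samples are IMR90 cells (normal human diploid lung fibroblasts, an established line) with the genotype ER-RAS. In such a fusion the activity of RAS depends on a hormone-binding domain of the estrogen receptor, which 4-hydroxytamoxifen (4OHT) occupies, and the series describes the RAS allele as G12V. All cells carried ER-RAS and received 100 nM 4OHT. The 3 libraries named as uncommitted controls (replicates A, B and C) were harvested at 30 h (1.5 days), and the 3 named as committed at 72 h (3 days). The comparison addresses which transcripts differ between cells committed to senescence and cells that are not yet committed. Commitment and time of 4OHT cannot be told apart, and untreated cells and cells without ER-RAS were not analysed here. Whether replicates A, B and C grew as separate cultures is not in the labels, and p-values therefore rest on a spread between libraries that may be technical. Library totals ranged from 13221152 to 15703544 reads.

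These chemokines are small secreted proteins that draw neutrophils out of the blood. They carry an ELR motif in front of the CXC cysteines and act through the receptors CXCR1 and CXCR2, which sit mainly on neutrophils. In fibroblasts their genes are induced by interleukin 1, TNF and Toll-like receptor signalling through NF-kB, their mRNAs are short-lived, and they are well-known components of the senescence-associated secretory phenotype. CXCL1, CXCL2 and CXCL3 (the GRO chemokines) and CXCL5 are ligands mainly of CXCR2, whereas CXCL6 and CXCL8 (interleukin 8) engage both receptors.

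The promoters are shown first, because the 6 genes share NF-kB-type letters just upstream of their starts. All 6 symbols matched RefSeq promoters (GRCh38.p14), and the 150 bases before each RefSeq start are printed 5′ to 3′ on the gene's strand. Capitals mark matches to the kB motif GGNNTTTCC and, in CXCL8, to the AP-1 motif TGANTCA. The windows are chr4:73869243-73869392 (plus strand) for CXCL1, chr4:74099196-74099345 (minus) for CXCL2, chr4:74038690-74038839 (minus) for CXCL3, chr4:73998678-73998827 (minus) for CXCL5, chr4:73836528-73836677 (plus) for CXCL6 and chr4:73740419-73740568 (plus) for CXCL8.
CXCL1: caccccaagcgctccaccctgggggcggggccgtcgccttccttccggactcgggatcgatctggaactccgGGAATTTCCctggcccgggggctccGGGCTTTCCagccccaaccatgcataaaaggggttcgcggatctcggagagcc
CXCL2: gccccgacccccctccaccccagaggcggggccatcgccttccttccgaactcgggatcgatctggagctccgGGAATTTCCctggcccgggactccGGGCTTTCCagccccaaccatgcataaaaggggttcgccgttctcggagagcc
CXCL3: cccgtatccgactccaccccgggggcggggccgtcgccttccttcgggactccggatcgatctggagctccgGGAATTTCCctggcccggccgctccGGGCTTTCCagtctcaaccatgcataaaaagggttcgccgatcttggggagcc
CXCL5: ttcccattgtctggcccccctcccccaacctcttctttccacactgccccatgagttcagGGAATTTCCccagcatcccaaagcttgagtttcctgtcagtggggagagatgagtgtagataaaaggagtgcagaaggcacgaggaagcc
CXCL6: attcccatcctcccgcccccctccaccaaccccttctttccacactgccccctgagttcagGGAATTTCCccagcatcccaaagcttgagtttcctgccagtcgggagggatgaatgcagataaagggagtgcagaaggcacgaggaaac
CXCL8: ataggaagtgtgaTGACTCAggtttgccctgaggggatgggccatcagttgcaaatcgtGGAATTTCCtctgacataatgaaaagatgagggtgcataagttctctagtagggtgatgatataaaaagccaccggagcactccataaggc

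The kB motif was searched on both strands of the full 300-base RefSeq windows, 250 bases before to 50 after the start. It occurred in 6 of 6 chemokine promoters and in 6.26% of 35116 promoters. The GRO genes each held 2 matches, at -78 and -53 in CXCL1 and CXCL3 and at -77 and -53 in CXCL2, whereas CXCL5, CXCL6 and CXCL8 held 1 each, at -90, -89 and -91. At least 2 matches were found in 0.296% of all promoters. The longer NF-kB consensus of 10 letters overlapped the kB match in 5 of the 6 and had no match in CXCL8, and 11.3% of promoters held it. The AP-1 motif occurred only in CXCL8, at -137 (7.71% of promoters), the C/EBP motif TTGCNNAA only in CXCL2, at -188 (10.5%), and TATAAA, searched on the gene's strand, only in CXCL8, at -31 (7.33%). These matches describe letters of the 300-base windows, of which only 150 bases are printed, and were not tested for use in these cells. A promoter without a match may still hold a looser form of a site. The letters TTGCAAAT just before the kB match of CXCL8, for example, are not matched by TTGCNNAA. RefSeq's start equals that of the deposited table for CXCL1 only.

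Transcripts of all 6 chemokines were far more abundant at 72 h than at 30 h. Together they took 0.0419%, 0.0653% and 0.118% of reads in 30 h libraries A, B and C, and 1.80%, 1.62% and 2.26% in the 72 h libraries (Wilson 95% intervals from 0.0408 to 0.0430% in 30 h A and from 2.25 to 2.26% in 72 h C, which cover counting error only). The mean share was 0.0752 ± 0.0391% at 30 h and 1.89 ± 0.329% at 72 h (SD, n = 3). In every gene all 3 libraries of 72 h lay above all 3 of 30 h, a pattern shown by 29.3% of the 13315 genes tested. By limma's test with Benjamini-Hochberg adjustment over all tested genes, 6 of 6 rose, against 23.6% of tested genes that rose and 25% that fell. Their median log2 fold change was 5.69, against 0.00509 over all tested genes. By size of rise, CXCL5 ranked 2 of all tested genes, CXCL2 ranked 6, CXCL6 ranked 9, CXCL1 ranked 10, CXCL3 ranked 13 and CXCL8 ranked 25. In bulk RNA, more cells with a transcript and more transcript per cell cannot be told apart.

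**Figure D1:**
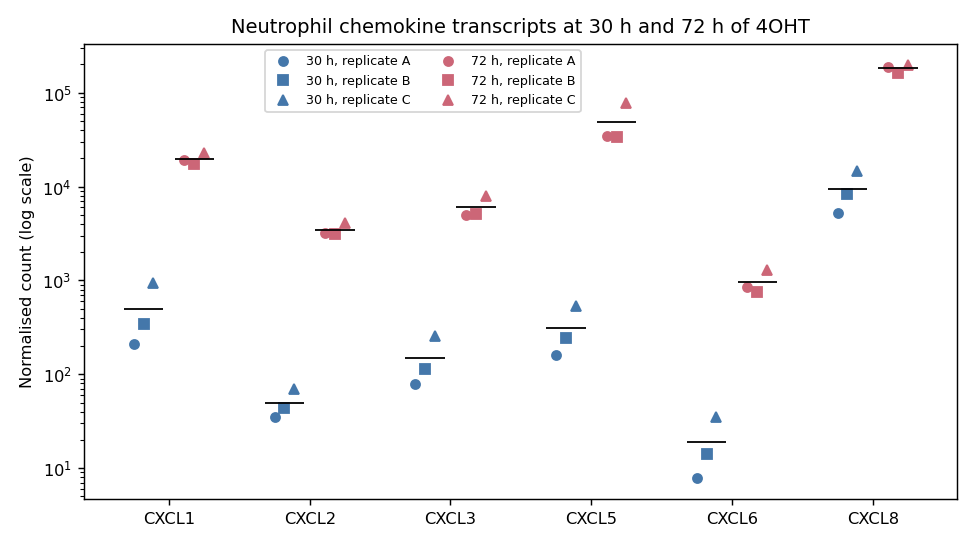
Normalised counts (log axis) of the 6 chemokines in each library; blue marks 30 h and red 72 h, circles replicate A, squares B, triangles C, and black lines group means. In every gene the 72 h libraries lie above the 30 h libraries, and the triangle is the highest point of each group.

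CXCL8, the best-known neutrophil attractant of the family (ENSG00000169429.10, chr4:73740506-73743716, plus strand, GRCh38), was already abundant at 30 h. It had 5257, 8292 and 14655 normalised counts in 30 h libraries A, B and C, and 185749, 161486 and 199135 at 72 h. The lowest 72 h library was 11.0 times the highest 30 h library. Means were 9402 ± 4796 and 182123 ± 19084 (SD, n = 3), a log2 fold change of 4.40 ± 0.389 (SE) or 21.1-fold, the smallest rise of the 6 (limma adjusted p = 0.000598). Among all genes CXCL8 ranked 395, 203 and 90 by reads in the 30 h libraries. In all 3 libraries of 72 h it ranked 1, with 1.179 to 1.433% of all reads. Fold changes here and below compare group means of log2(normalised count + 1). They are therefore not the ratios of the printed means, which for CXCL8 is 19.4. The added 1 understates the fold changes of low genes.

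CXCL5 (ENSG00000163735.6, chr4:73995642-73998779, minus strand), a CXCR2 ligand, showed the largest rise of the 6. Its normalised counts were 161, 246 and 534 in 30 h libraries A, B and C, and 34382, 33659 and 78077 at 72 h. Replicate C held more than either other library at each time, and the lowest 72 h library was 63.1 times the highest of 30 h. The log2 fold change was 7.34 ± 0.572 (SE), or 162-fold (adjusted p = 0.000371). Leaving out single libraries gave folds from 123 (without 72 h replicate C) to 225 (without 30 h replicate C). CXCL6 (ENSG00000124875.9, chr4:73836497-73849064, plus strand), the closest relative of CXCL5 in sequence, was the scarcest of the 6. Only 8, 14 and 33 reads were counted at 30 h, or 7.80, 14.2 and 34.8 normalised counts. At 72 h it had 843, 761 and 1296, so its groups did not overlap. Its means were 18.9 ± 14.1 and 967 ± 288 (n = 3), a rise of 5.80 ± 0.552 on the log2 scale or 55.8-fold (adjusted p = 0.000604). CXCL6 was the only one of the 6 under the minimum of 10 normalised counts in a library (30 h A). It passed the filter on low values through its 72 h libraries, so its presence among tested genes is not separate support.

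The GRO genes share most of their coding sequence and had fitted rises between 44.1-fold and 71.4-fold. CXCL1 (ENSG00000163739.4, chr4:73869393-73871242, plus strand) had 213, 342 and 943 normalised counts at 30 h and 19203, 17392 and 22879 at 72 h. Its highest 30 h library, replicate C, was 4.44 times its lowest, yet the lowest 72 h library was 18.4 times the highest of 30 h. The means were 499 ± 390 and 19825 ± 2796 (n = 3), a log2 fold change of 5.58 ± 0.571 or 48.0-fold (adjusted p = 0.00101). Without 30 h replicate C the fold was 72.7, and without 30 h replicate A it was 34.6. Over the 6 fits that each left out 1 library, its limma adjusted p ranged from 0.000271 to 0.0125.

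CXCL2 (ENSG00000081041.8, chr4:74097035-74099293, minus strand) was the most even of the 6 between 30 h libraries, with 35.1, 43.7 and 69.6 normalised counts. At 72 h it had 3240, 3109 and 4113. The lowest 72 h library was 44.7 times the highest of 30 h, and the log2 fold change of 6.16 ± 0.263 (SE), or 71.4-fold, had the smallest adjusted p of the 6 (limma, 1.77e-05). In the authors' deposited table CXCL2 ranked 2 of 17065 genes by adjusted p, with a log2 fold change of 6.15. The other 5 ranked between 335 and 694 in the authors' deposited table. CXCL3 (ENSG00000163734.4, chr4:74036589-74038807, minus strand) had 78.0, 114 and 255 normalised counts at 30 h and 4928, 5076 and 7969 at 72 h. Both times showed the same high library, replicate C, and no overlap between groups. Its rise was 5.46 ± 0.488 on the log2 scale, or 44.1-fold (adjusted p = 0.000619).

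Reads of the GRO genes could in part be assigned to the wrong gene. Of all stretches of 50 bases in the transcript with the longest coding sequence, 5.73% of those of CXCL1, 9.24% of CXCL2 and 5.26% of CXCL3 also occur in a transcript of another gene. Every shared stretch of CXCL1 and of CXCL3 also occurred in CXCL2. Their coding sequences were 90.7 to 94.4% identical over 321 bases, and those of CXCL5 and CXCL6 were 87.4% identical over 342 bases. Across these groups and CXCL8 (297 bases) identity was 48.1 to 61.2%. CXCL6 and CXCL8 had no such shared stretch, and CXCL5 shared 1.12% with GLYR1. The exons of CXCL6 overlap 94 bases of the pseudogene PPBPP1 on the same strand, which was listed with 0 reads in every library. In the 250 bases before the start, CXCL5 and CXCL6 were 85.3% identical and the GRO genes 67.9 to 81.4%, against 40.7 to 43.6% between CXCL8 and the others.

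Levels of different genes were compared as TPM values, that is, reads per kilobase of exon scaled to a common total in each library. At 30 h the order of mean TPM was CXCL8 (1205), CXCL1 (112), CXCL5 (36.0), CXCL3 (19.6), CXCL2 (9.62) and CXCL6 (2.53). Only CXCL8 over CXCL1 and CXCL2 over CXCL6 did not overlap in their ranges over the 3 libraries. The ranges of CXCL1 and CXCL5, of CXCL5 and CXCL3, and of CXCL3 and CXCL2 overlapped, although each stood above the next within all 3 libraries. At 72 h the order was CXCL8 (21725), CXCL5 (5198), CXCL1 (4149), CXCL3 (732), CXCL2 (631) and CXCL6 (120). CXCL5 lay above CXCL1 in 1 of 3 libraries only, so their order at 72 h is within the spread, and the ranges of CXCL3 and CXCL2 also overlapped. By TPM, CXCL8 ranked 157, 83 and 44 among all genes in the 30 h libraries and 3, 4 and 1 at 72 h.

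The make-up of the chemokine pool also differed between times. CXCL8 held 88.9%, 89.1% and 85.3% of the summed reads per kilobase of the 6 genes in 30 h libraries A, B and C, and 71.1%, 69.3% and 61.3% at 72 h. The share of CXCL5 was 2.44%, 2.37% and 2.78% at 30 h and 11.8%, 13.0% and 21.5% at 72 h. CXCL8 therefore moved from a mean share of 87.7 ± 2.15% to 67.3 ± 5.26% and CXCL5 from 2.53 ± 0.222% to 15.4 ± 5.31% (SD, n = 3). CXCL1 took 7.46 ± 1.87% at 30 h and 12.8 ± 0.390% at 72 h. The shares of CXCL2 (0.741 and 1.94%), CXCL3 (1.37 and 2.23%) and CXCL6 (0.169 and 0.364%) were also larger at 72 h. For all 6 genes the shares of the groups did not overlap, and the 2-sided exact permutation test gave p = 0.1 for each (0.1 after adjustment over 6 tests), the smallest value that 3 libraries against 3 allow. The design therefore cannot reach 0.05 by this test. Shares of 1 pool are not independent, since a smaller share of CXCL8 raises the others.

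**Figure D2:**
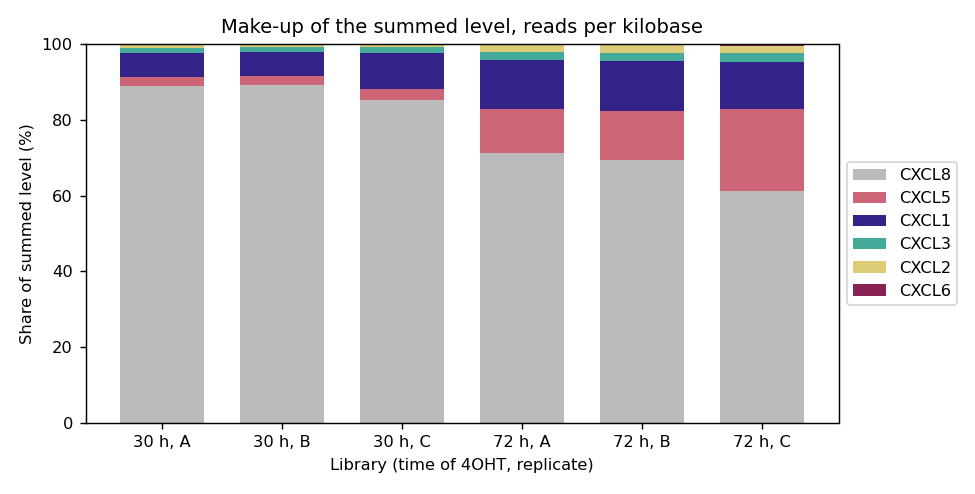
Share (%) of each chemokine in the summed reads per kilobase of the 6 genes, 1 stacked bar per library. CXCL8 (grey) fills 85.3 to 89.1% of the 30 h bars and 61.3 to 71.1% of the 72 h bars, and CXCL5 (red) widens from 2.37 to 2.78% at 30 h to 11.8 to 21.5% at 72 h.

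The 6 chemokines varied together between the 30 h libraries, and at 72 h they shared the highest library. Replicate C was the highest library of both times for 6 of 6 genes, against 17.2% of tested genes. At 30 h the order A below B below C held for 6 of 6, against 20.2% of tested genes. The order of A and B was not shared at 72 h. There CXCL3 had A below B (4928 and 5076 normalised counts), whereas the others had A above B. The SD of log2 values between libraries was 0.495 to 1.10 for the 6 at 30 h and 0.154 to 0.692 at 72 h, compared with medians of 0.111 and 0.114 over all tested genes. Replicate C was the highest 30 h library for 38.0% of tested genes, among them IL1B (1122, 2221 and 2800 normalised counts in A, B and C), which encodes a main inducer of these chemokines, and the growth factor gene AREG (3122, 3513 and 9056). What sets replicate C apart was not tested.

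**Figure D3:**
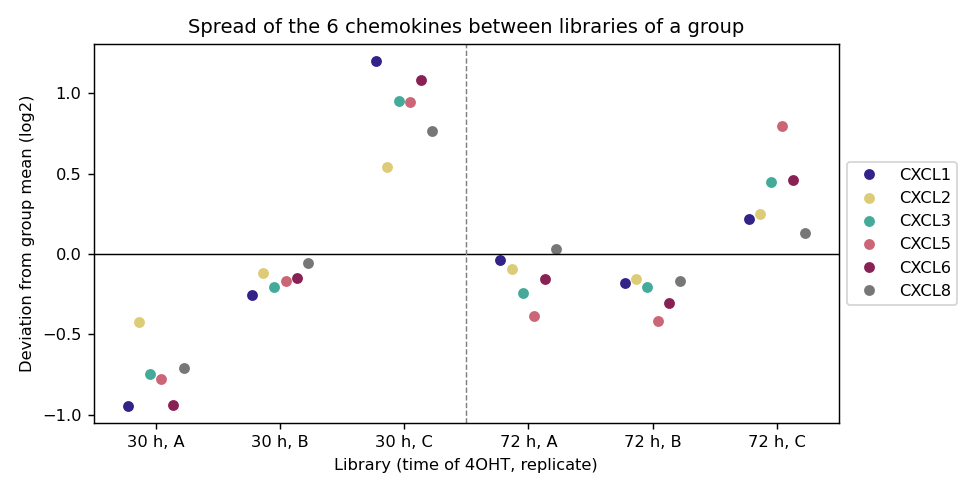
Deviation of each library from its group mean on the log2(normalised count + 1) scale for the 6 chemokines; the dashed line separates 30 h from 72 h. All 6 genes are above 0 in replicate C of both times and below 0 in replicates A and B of 30 h.

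Outside the family, the genes whose pattern over the 6 libraries was most like the mean profile of the 6 chemokines were SLC18B1, KYNU, RAB27B, TPP1 and RAP2A. Pearson's r was 0.9993 for SLC18B1 and KYNU, 0.9992 for RAB27B and 0.9990 for TPP1 and RAP2A, out of 10516 genes compared. The chemokines themselves had r from 0.9969 to 0.9997 with the profile. These coefficients rest on 6 libraries in 2 separate groups and are given as a description. KYNU, an enzyme of kynurenine breakdown, had 111, 124 and 195 normalised counts at 30 h and 1392, 1268 and 1706 at 72 h. RAB27B, a small GTPase of secretory vesicles, had 102, 119 and 171 at 30 h and 988, 868 and 1197 at 72 h. Both were chosen for their likeness to the chemokine profile, so their shared order of libraries is no separate finding. The rise of the lysosomal protease gene TPP1 was only 0.66 ± 0.0590 (SE) on the log2 scale, so likeness in pattern did not mean likeness in size.

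The 6 genes lie within 358.8 kb. CXCL8, CXCL6 and CXCL1 are on the plus strand, and CXCL5, CXCL3 and CXCL2 follow on the minus strand. Between them the deposited table lists 10 other genes and pseudogenes, of which 6 had no read and 0 passed the filter on low values. Among these were the platelet chemokine genes. PF4V1 had 6, 8 and 12 reads at 30 h and 3, 5 and 3 at 72 h. PF4 had 0, 2 and 1 reads at 30 h and 3, 3 and 4 at 72 h. PPBP, which encodes a further ELR chemokine, had 0 reads in all 30 h libraries, where a count of 0 allows up to 3 reads, and 1, 2 and 4 at 72 h. No fold is given for these near-absent genes.

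Within 1 Mb on either side, 7 other rows were tested, and their fitted changes were smaller than those of the chemokines, although the difference itself was not tested. The nearest, MTHFD2L, encoding a mitochondrial folate enzyme, starts beyond CXCL2 and went from 144 ± 30.0 to 272 ± 28.9 normalised counts (log2 fold change 0.93, adjusted p = 0.000687). EREG, the EGF receptor ligand epiregulin, had 3827 ± 1564 at 30 h and 8172 ± 1148 at 72 h (1.16, adjusted p = 0.0251). AREG, its relative amphiregulin, did not pass (0.28, adjusted p = 0.650). PARM1, a mucin-like membrane protein gene at the far end of the window, rose from 10.8 ± 3.76 to 132 ± 81.7 (3.39, adjusted p = 0.000420). On the other side ANKRD17 rose by 0.35 (adjusted p = 0.000932), COX18 fell by 0.24 (adjusted p = 0.0346), and the pseudogene HMGA1P2 did not pass (-0.68, adjusted p = 0.117).

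**Figure D4:**
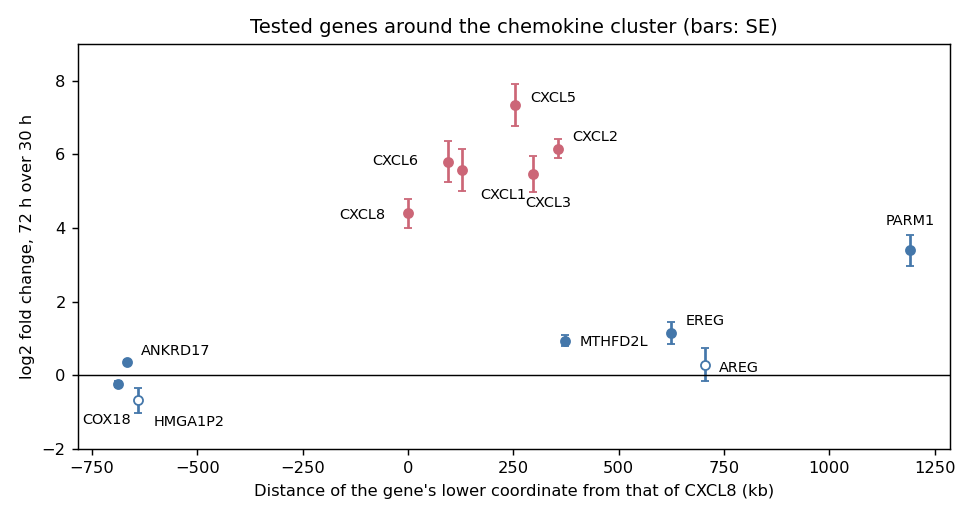
Log2 fold change (72 h over 30 h) with SE bars for the 13 tested genes of the window, against the distance of each gene's lower coordinate from that of CXCL8 in kb; red marks the 6 chemokines, blue their neighbours, and open points did not pass the test. The chemokines lie between 4.40 and 7.34, and the highest neighbour, PARM1, at 3.39.

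The receptors of these chemokines were not detected. CXCR1, CXCR2 and the scavenger receptor ACKR1 had 0 reads in all 6 libraries, where a count of 0 allows up to 3 reads per library. Of 24 chemokine receptors and scavengers listed, 1 could be tested. This was ACKR3, a scavenger receptor of CXCL12, with 8.77, 4.06 and 23.2 normalised counts at 30 h and 71.5, 95.04 and 93.4 at 72 h (8.19-fold, adjusted p = 0.00326). It passed the filter on low values through its 72 h libraries and was not tested when all 6 libraries had to reach 10. All 72 h values lay above those of 30 h, and without 30 h replicate C the fold was 12.4. Among 17 tested genes for signalling downstream of CXCR2, 4 rose (23.5%, the background share) and 7 fell (41.2%, against 25% of all tested genes) while 6 did not pass, with a median log2 fold change of -0.12. PREX1, an exchange factor for RAC proteins, rose 6.13-fold from 333 ± 40.9 normalised counts (adjusted p = 1.35e-05). RAC2, a RAC protein typical of blood cells, rose 4.18-fold from 405 ± 19.9 (adjusted p = 4.43e-08). The arrestin gene ARRB1 rose 1.59-fold, and the G protein subunit gene GNG5 fell 1.31-fold. The call of GRK6 (lower, limma adjusted p = 0.014) was lost in 3 of the 6 fits that each left out 1 library.

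Other chemokine genes changed in part. Of 11 other CXC chemokines only CXCL10 and CXCL12 could be tested. CXCL10, an interferon-induced attractant of T cells that lacks the ELR motif, rose from 29.9 ± 6.48 to 201 ± 10.9 normalised counts (6.64-fold, adjusted p = 3.09e-06). CXCL12, the constitutive stromal chemokine, fell from 50.5 ± 8.22 to 26.6 ± 9.59 (-0.95 on the log2 scale, adjusted p = 0.0174). Among 24 CC, C and CX3C chemokines with a deposited row, 4 were tested and called higher. CCL3, CCL7 and CCL20 reached the filter on low values only through their 72 h libraries, so the direction of this count is partly fixed by the filter. With 10 normalised counts required in all 6 libraries, CCL2 was the 1 gene tested, and it was called higher. CCL20, which attracts cells through CCR6, had 5.85, 18.3 and 13.7 normalised counts at 30 h and 1330, 1284 and 1314 at 72 h. That was 105-fold, a size within the range of the 6 neutrophil chemokines. The monocyte attractant genes CCL2 and CCL7 rose 5.28-fold and 10.2-fold.

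Of 10 tested genes linked to neutrophil growth, recruitment and adhesion, 6 rose (60.0%, against 23.6% of all tested genes). C5 and ANXA1 fell (20.0%, against 25%), and CSF1 and VCAM1 did not pass. The median log2 fold change of the 10 was 2.00. CSF3, the granulocyte colony-stimulating factor, had 90.7, 150 and 196 normalised counts at 30 h and 14310, 13598 and 15226 at 72 h. The rise, 103-fold by the fit (adjusted p = 3.61e-05), lay between those of CXCL5 and CXCL2, and the difference from them was not tested. CSF2 rose 13.6-fold, IL6 16.2-fold and LIF 6.06-fold, and the other 2 that rose were C3 and ICAM1.

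Among 25 tested genes of the signalling known to induce the chemokines, 10 rose (40.0%, against 23.6% of all tested genes) and 6 fell (24.0%, against 25%) while 9 did not pass, with a median log2 fold change of 0.03. The ligand genes IL1B, IL1A and IL33 were among those that rose. IL18 had at most 2 reads in a library and was not tested. IL17A had 0 reads in every library, as did TNF, which was listed with the neutrophil factors. IL1B went from 2048 ± 852 to 89529 ± 16317 normalised counts (46.3-fold, adjusted p = 0.000227), and IL1A from 135 ± 52.4 to 1458 ± 280 (11.2-fold, adjusted p = 0.000644). IL33 had 9.75, 4.06 and 47.5 normalised counts at 30 h and 520, 390 and 1176 at 72 h. Its fold of 45.0 (adjusted p = 0.00684) became 84.2 without 30 h replicate C and 27.2 without 30 h replicate B. IRAK3, an inhibitory kinase of this pathway, rose 7.73-fold. IL33 passed the filter on low values through its 72 h libraries. Receptors and signal transducers were found in both directions. TNFRSF1B rose 6.53-fold, IRAK2 4.09-fold, TRAF3IP2 3.25-fold and IL1R1 2.09-fold, and MYD88 and MAP3K7 rose 1.21-fold and 1.13-fold. The 6 that fell, by 1.22-fold to 1.69-fold, were IRAK1, IRAK4, TRAF6, IKBKB, TNFRSF1A and IL17RA. The call of TRAF6 (adjusted p = 0.0274) was lost in 5 of the 6 fits that each left out 1 library, and that of MAP3K7 (adjusted p = 0.0243) in 4.

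Most tested genes for NF-kB, AP-1 and C/EBP factors and their inhibitors rose. Of 27 tested, 18 rose (66.7%, against 23.6% of all tested genes), 2 fell (FOSL1 and PARP1) and 7 did not pass, with a median log2 fold change of 0.52. The named members include brakes on NF-kB as well as activators. TNFAIP3 and TNIP1, which restrain NF-kB signalling and are themselves its targets, rose 7.17-fold and 3.51-fold. NFKBIZ, a nuclear cofactor needed for some NF-kB targets, rose from 829 ± 200 to 3488 ± 168 normalised counts (4.29-fold, adjusted p = 0.000241). CEBPD rose 3.16-fold from 69.2 ± 11.4. The call of TNIP2 (higher, limma adjusted p = 0.017) was lost in 2 of the 6 fits that each left out 1 library.

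Among 16 tested regulators of chemokine mRNA decay 5 rose (31.2%) and 3 fell (18.8%) while 8 did not pass, shares near those of all tested genes (23.6% and 25%), with a median log2 fold change of 0.07. Without 30 h replicate C the number that fell was 5. The call of ARID5A (higher, limma adjusted p = 0.0432) was lost in 5 of the 6 fits that each left out 1 library. ZC3H12A, an RNase that degrades cytokine mRNAs, rose from 265 ± 76.9 to 2023 ± 286 normalised counts (7.75-fold, adjusted p = 0.000171), and its relative ZC3H12C rose 2.14-fold. The phosphatase gene DUSP1 rose 1.68-fold. ZFP36L1, which binds AU-rich elements, fell 1.59-fold.

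**Figure D5:**
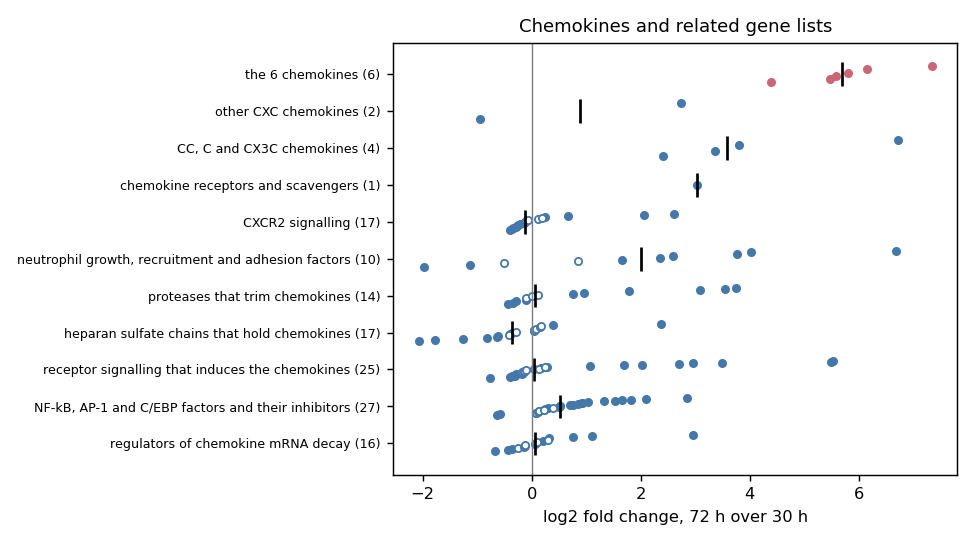
Log2 fold change (72 h over 30 h) of the 6 chemokines (red) and of the tested genes of each related list (blue), with the number tested in parentheses; filled points passed the test, open points did not, and black bars are medians. All 6 chemokines lie right of 4, beyond most genes of every other list.

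Proteases known to trim chemokines and the heparan sulfate chains that hold them were listed as well. Of 14 tested genes on the protease list 6 rose (42.9%), 3 fell (21.4%) and 5 did not pass. The median log2 fold change was 0.06, and 23.6% and 25% of all tested genes rose and fell. The list and its shares include PLAUR and F2R, which encode receptors and not proteases, and neither passed. The calls of ANPEP (higher, limma adjusted p = 0.0391) and CTSB (lower, 0.0468) were each lost in 4 of the 6 fits that each left out 1 library. MMP3 rose 13.4-fold, from 8387 ± 4683 to 104015 ± 27956 normalised counts (adjusted p = 0.00165). CTSS, MMP12 and DPP4 rose 11.7-fold, 8.47-fold and 3.47-fold. The neutrophil proteases CTSG, ELANE and PRTN3 had 0 reads in every library. Of 17 tested genes of heparan sulfate proteoglycans and the enzymes that build or cut their chains, 2 rose (11.8%), 8 fell (47.1%) and 7 did not pass (median log2 fold change -0.36). The 2 that rose were HS2ST1 and HPSE, which encodes heparanase, the enzyme that cuts these chains. HPSE had 6.82, 3.05 and 4.22 normalised counts at 30 h and 24.5, 20.1 and 42.0 at 72 h, the largest change of the list (5.19-fold, adjusted p = 0.00067), and it passed the filter on low values through its 72 h libraries. SDC2, encoding a syndecan, fell from 1082 ± 193 to 256 ± 33.1 normalised counts (-2.07 on the log2 scale, adjusted p = 2.15e-05). GPC1, GPC6 and HS3ST3A1 fell 2.40-fold, 1.76-fold and 1.55-fold.

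Cell type markers were read beside these results. Of 15 fibroblast markers all 15 were detected at both times and tested. Passing the filter on low values does not by itself establish the label. Among the 15, 10 fell (66.7%, against 25% of all tested genes), 1 rose (FAP, 6.67%, against 23.6%) and 4 did not pass. Their summed normalised count lay between 422836 and 453886 at 30 h, and between 182030 and 208910 at 72 h. COL1A1 fell 3.73-fold and COL1A2 4.06-fold. Of 20 leukocyte markers only CSF1R and LAPTM5 could be tested, and both rose, to 55.8 ± 4.11 and 66.9 ± 1.73 normalised counts, having passed the filter on low values through their 72 h libraries. Summed leukocyte markers reached 31.5 to 47.5 at 30 h, and 153 to 163 normalised counts at 72 h. TYROBP, MPO, ELANE, FCGR3B, CD3D, CD3E, MS4A1 and NKG7 had 0 reads in every library, and PTPRC, the general leukocyte marker, had 0 to 5. Of 10 epithelial markers 1 was tested and rose (CLDN4, 4.24-fold), with a summed level of 25.3 to 82.3 at 30 h and 78.7 to 123 at 72 h. Of 9 endothelial markers 3 were tested, of which TIE1 rose, TEK fell and ESAM did not pass, with a summed level of 700 to 964 at 30 h and 509 to 548 at 72 h. The part of these marker levels in the chemokine rise was not tested.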

How the data were processed

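The authors sequenced RNA of 6 libraries, 3 per group. Per the submitters' processing notes, Trimmomatic 0.35, STAR 2.5.1b, DESeq2 1.18.1 and GRCh38 (hg38) were named, whereas the read counter, annotation and strand setting remain not given in the sources used here. Each deposited signal value is a count divided by the size factor of its library. The authors' log2 fold changes, Wald score, p-value and adjusted p-value columns were read only as the authors' comparison. Per the submitters' file, 0 other columns held per-sample values.

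Whole reads were recovered from the deposited signal, since 100% of values were whole multiples of 1 read within 0.01. Rows reaching 10 normalised counts in 3 or more libraries (13315) were tested with limma 3.58.1 (trend and robust) on log2(value + 1), two-sided, with p-values adjusted by Benjamini-Hochberg and called under 0.05. The test was checked on simulated data. The edgeR 4.0.16 quasi-likelihood test on recovered reads called 3143 genes higher and 3340 lower, against 3144 and 3328. TPM and shares used merged exons of GENCODE 29. Promoters came from RefSeq, and coding sequences from GENCODE 29. The kB motif was written from the NF-kB sites of this family, and the C/EBP motif was set after the data were seen.

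The members and lists were chosen with earlier results of these data known. Named genes were the 6 chemokines, CXCR1, CXCR2, ACKR1, the tested protein-coding genes of the locus, the 5 genes most alike, and for each list up to 4 called genes, ranked by size of change, whose mean in the higher group was 50 normalised counts or more. Other called genes of the lists, HPSE and the signalling genes among them, IL1B and AREG by library, and the rows between the 6 chemokines were chosen after their values were seen. Replicates of a group differed beyond sampling noise (chi-square per degree of freedom 3.29 to 16.3), and each was counted. Such a spread may be technical and does not show that they were separate cultures. The letters A, B and C were not taken as pairs, since the correlation of deviations was 0.007 for A, although it was 0.172 for B and 0.185 for C. These values do not settle whether the letters are pairs, and fits with the letters as a block are given below. Intervals cover counting error only.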

Additional observations from a re-analysis of the deposited data

How the results depend on the processing

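All 6 chemokines rose under each alternative in which they were tested: other scalings, pseudocounts of 0.5 and 5, no filter, edgeR, DESeq2 1.42.0, the authors' deposited table, limma without trend and robust fitting, a replicate block, and each library left out. With at least 10 normalised counts required in all 6 libraries, CXCL6 was not tested and the other 5 rose. The log2 fold change ranged from 5.11 to 6.18 for CXCL1, 5.95 to 6.43 for CXCL2, 5.09 to 5.94 for CXCL3, 6.94 to 7.81 for CXCL5, 5.33 to 6.35 for CXCL6 and 4.04 to 4.78 for CXCL8, and the highest adjusted p, outside DESeq2 and the authors' deposited table, was 0.0125. Of 57 alternative counts of genes and 113 alternative fold changes, none changed direction or call, and the counts stayed within 1.5 times those reported. With the letters as a replicate block, limma called 3271 genes higher and 3452 lower and edgeR 3252 and 3429, with all 6 chemokines higher in both. The correlations of deviations of same-lettered libraries were 0.007, 0.172 and 0.185, and 72 h replicate A correlated slightly better with 30 h replicate B (0.0091). By contrast, 72 h replicates B and C each correlated best with the 30 h library of the same letter. Between letters, 30 h C with 72 h B gave -0.212 and 30 h B with 72 h C gave -0.149. As shares of reads without length, the difference for CXCL1 was 3.23 percentage points and for CXCL2 0.835. Leukocyte markers called higher numbered 4 without the filter, with DESeq2 and in the authors' deposited table, and 0 with the stricter filter. Depth limits CXCL6, with 8 reads in 30 h replicate A, and the platelet chemokine genes.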

Other observations

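A few values in the lists stand outside the comparison. KRT19, an epithelial keratin gene, had 5, 43 and 1 reads in 30 h replicates A, B and C and 1, 40 and 1 at 72 h, so replicate B was the high library at both times, unlike the chemokines, whose high library was replicate C. Metalloproteinase genes of neutrophils were low, with higher means at 72 h, and were not tested. MMP8 had 2, 3 and 5 reads at 30 h and 16, 6 and 17 at 72 h. Its groups overlapped in normalised counts, with 5.23 in 72 h replicate B and 5.27 in 30 h replicate C. MMP9 had 1, 0 and 1 reads at 30 h and 8, 7 and 33 at 72 h. CCL3, below the level set for naming, had a mean of 2.73 ± 3.10 normalised counts at 30 h and 38.1 ± 4.16 at 72 h (SD, n = 3).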
